A study of Mus musculus with 15 samples.

Results

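Pericytes and vascular smooth muscle cells, together called mural cells, wrap the capillaries and the larger vessels of muscle. The 10 genes described here are markers of these cells, taken by name from the gene column of both expression tables: Pdgfrb, Rgs5, Kcnj8, Abcc9 and Notch3 for pericytes, and Acta2, Myh11, Tagln, Mylk and Cnn1 for contractile smooth muscle. All 10 were found in both tables, among 42396 gene rows, and all 10 passed the filter on low counts in males and in females. Muscle tissue was taken whole. The number of mural cells, the RNA per mural cell and RNA from other cells cannot be told apart in any value that follows.

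Mural cells settle on new vessels in answer to PDGF-BB, which endothelial cells release and the receptor Pdgfrb binds. Notch3 on the mural cell, switched on by Jag1 of the neighbouring endothelium, maintains the smooth muscle state of small arteries. Their contractile genes are driven by serum response factor (SRF) with myocardin-family cofactors at DNA elements called CArG boxes, while a potassium channel made of Kcnj8 and Abcc9 sets how relaxed the vessel wall is.

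The study put a form of LSMEM2 named C-del into the hindlimb of adult C57BL/6 mice with the viral vector AAV6, and 2 months later sequenced RNA from the shin muscle tibialis anterior, which is made mostly of fast fibres. Mock mice received AAV6 with EGFP, a green fluorescent protein, so both arms carry the virus. There were 4 male C-del, 4 male mock, 4 female C-del and 3 female mock libraries. Neither the meaning of C-del nor the promoter that drove the vector is given in these sources. Each sex has its own table, so an effect of sex and one of table cannot be told apart. Whether the libraries of a group are separate animals is not stated, and p-values thus reflect spread among libraries that may be technical.

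Total counts were 15304503 to 17744015 in male C-del, 14297620 to 15454510 in male mock, 10239329 to 12054871 in female C-del and 9285145 to 10790101 in female mock libraries. Levels are in CPM, counts scaled to a common library size. Lsmem2 ranged over 487 to 2384 CPM in C-del males, 28.8 to 30.1 CPM in mock males, 1335 to 2677 CPM in C-del females and 29.2 to 32.7 CPM in mock females. The extraction text speaks of hearts. Of 4 heart genes, Nppa and Myl7 reached at most 0.176 CPM in any library, Myh6 lay between 2.93 and 7.63 CPM and Myl4 between 4.06 and 21.5 CPM, with Myl4 lower in C-del males (edgeR, adjusted p = 0.0452), whereas skeletal actin Acta1 averaged 33509 CPM in C-del males and 29058 CPM in mock males. Female mock library 2 stood apart in markers of B and plasma cells, whose summed level ran from 31.7 to 6252 CPM across the female mock libraries, against 7.72 to 58.6 CPM in female C-del libraries.

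Per kilobase of exon, the mural markers spanned a wide range of levels. In male C-del libraries Rgs5 was highest at 122.6 CPM per kb, against 134.9 in male mock, and Cnn1 lowest at 1.23, against 1.58 in male mock. Between these in male mock libraries came, per kb, Acta2 at 50.7 CPM, Abcc9 at 43.8, Tagln at 15.5, Kcnj8 at 13.6, Pdgfrb at 12.9, Myh11 at 9.77, Notch3 at 7.83 and Mylk at 3.41. The library ranges of Acta2 and Abcc9 overlapped in that order, and so did those of Tagln with Kcnj8 and of Kcnj8 with Pdgfrb. The other neighbours did not overlap.

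In males, 8 of the 10 markers fell with C-del and 0 rose, at an adjusted p under 0.05 over all genes (edgeR). Over all 14548 genes tested in males, 11.2% passed in either direction and 5.39% were lower. The median log2 fold change, C-del over mock, was -0.27 over the 10 markers and -0.0050 over all genes. All 10 fold changes were below 0, against 50.9% of all genes. The falls were modest, between 15.4% and 24.6% of the mock mean, and they took in 4 of the 5 pericyte markers and 4 of the 5 contractile ones. In 7 of the 10 genes every C-del library lay below every mock library, an arrangement found in 8.3% of all genes tested.

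**Figure D1:**
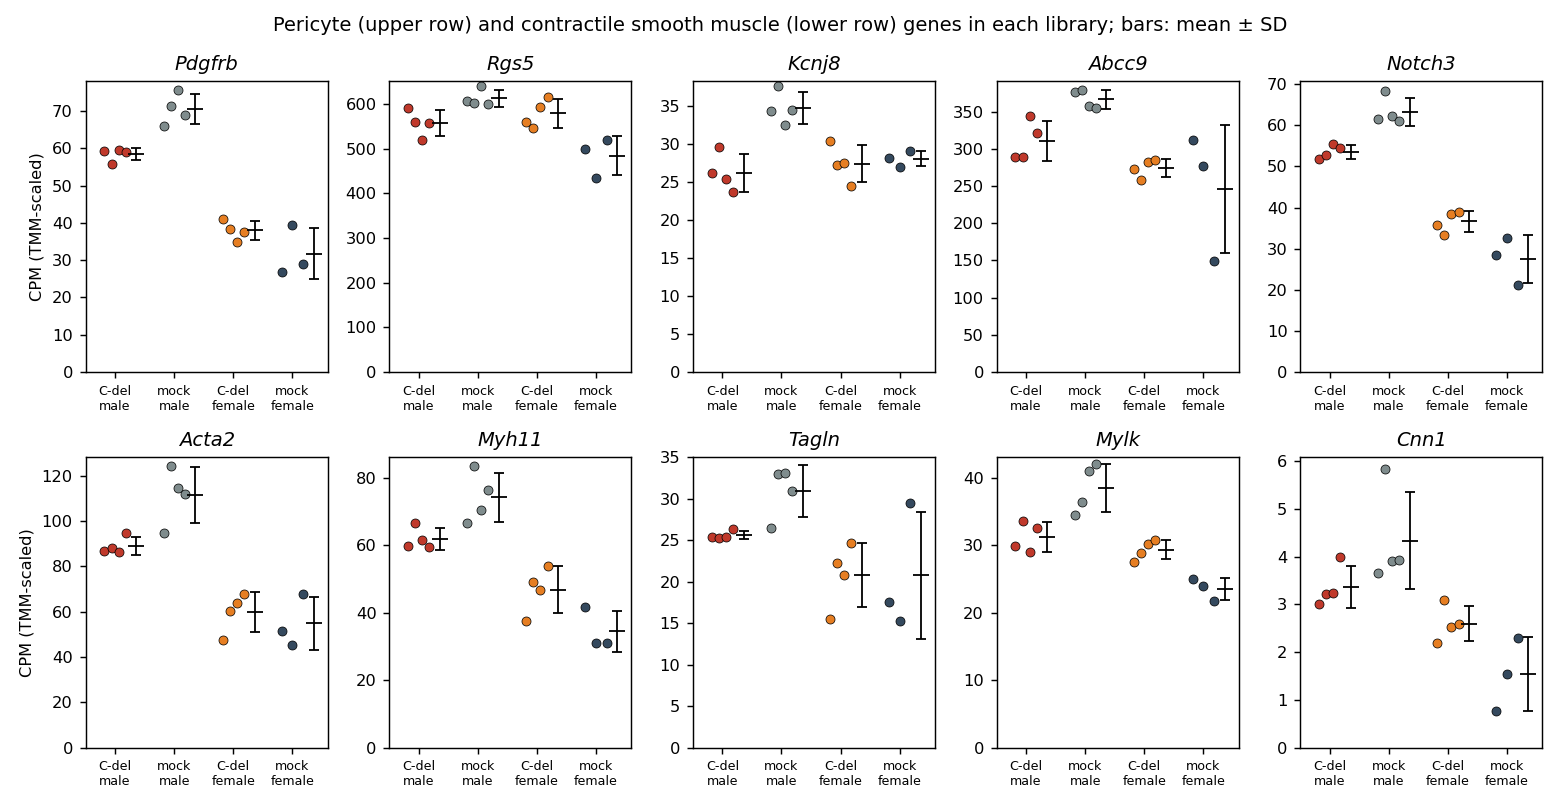
Level of each marker in CPM (vertical axes, starting at 0) in the 4 male C-del, 4 male mock, 4 female C-del and 3 female mock libraries. Each point is a library and the bars give the mean ± SD. Male C-del points sit below male mock points for Kcnj8, Pdgfrb and Notch3, while in females 1 mock library of Abcc9 lies at 149 CPM, far under the others.

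Pdgfrb encodes the PDGF receptor that recruits mural cells (GRCm38.p6, chromosome 18, 61045127 to 61085067, plus strand). It measured 59.2, 55.9, 59.6 and 59.1 CPM in the male C-del libraries, against 66.0, 71.3, 75.6 and 69.0 CPM in the male mock libraries. The groups did not overlap. The log2 fold change was -0.27 ± 0.053 (SE; edgeR, adjusted p = 0.00445).

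Kcnj8 and Abcc9 encode the pore and the sulfonylurea receptor of the vascular KATP channel, which opens when ATP is low and relaxes the vessel. They are neighbours on the minus strand of chromosome 6 (142564837 to 142571614 and 142587862 to 142702766), with 16247 bases between them. Kcnj8 had the deepest fall among the 8, at 26.1, 29.6, 25.4 and 23.6 CPM in male C-del libraries, against 34.3, 37.5, 32.4 and 34.4 CPM in male mock libraries. The groups were apart, and the log2 fold change was -0.41 ± 0.072 (SE; edgeR, adjusted p = 0.0024). Abcc9 measured 289.7, 288.9, 344.0 and 321.1 CPM in male C-del libraries, against 376.1, 379.7, 357.6 and 354.4 CPM in male mock libraries. Its groups did not overlap either, and it fell by 0.24 ± 0.057 on the log2 scale (SE; edgeR, adjusted p = 0.0139).

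The partners of these subunits in other cells were read beside them. Kcnj11, the pore of the channel in skeletal muscle fibres and pancreatic beta cells, averaged 162.3 ± 5.42 CPM in C-del males and 172.6 ± 11.7 CPM in mock males (± SD, n = 4 each), with a log2 fold change of -0.092 ± 0.051 that did not pass (SE; edgeR, adjusted p = 0.278). Abcc8, the receptor subunit known from beta cells, was at 1.72 ± 0.32 CPM in C-del males and 1.85 ± 0.30 CPM in mock males and did not pass. Abcc9 is also made by muscle fibres, so its level in whole muscle is not that of mural cells alone.

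Notch3, the Notch receptor of vascular smooth muscle (chromosome 17, 32120820 to 32166896, minus strand), measured 51.7, 52.7, 55.5 and 54.4 CPM in male C-del libraries, against 61.6, 68.4, 62.4 and 61.1 CPM in male mock libraries. The groups did not overlap, and it fell by 0.25 ± 0.053 on the log2 scale (SE; edgeR, adjusted p = 0.00817). Rgs5, a brake on G protein signalling that marks pericytes (chromosome 1, 169655501 to 169695813, plus strand), was at 590.3, 560.9, 520.5 and 558.3 CPM in male C-del libraries, against 607.5, 603.1, 641.3 and 601.2 CPM in male mock libraries. These groups did not overlap, but the log2 fold change of -0.14 ± 0.047 did not pass (SE; edgeR, adjusted p = 0.0682). Permuting the libraries exactly (two-sided) gave p = 0.029 for each of the 7 genes without overlap, the smallest that 4 against 4 libraries allow.

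Acta2, the actin of smooth muscle, lies on the minus strand of chromosome 19 (34240336 to 34255585). Its RefSeq promoter is printed here because, of the 7 markers with a RefSeq promoter sequence, it alone held CArG boxes, the elements that SRF binds. The promoter table uses a start that lies inside the gene span just given. The 250 bases before that start in GRCm38.p6, chr19:34255374-34255623 on the minus strand, read as follows, with the boxes in capitals.
Acta2: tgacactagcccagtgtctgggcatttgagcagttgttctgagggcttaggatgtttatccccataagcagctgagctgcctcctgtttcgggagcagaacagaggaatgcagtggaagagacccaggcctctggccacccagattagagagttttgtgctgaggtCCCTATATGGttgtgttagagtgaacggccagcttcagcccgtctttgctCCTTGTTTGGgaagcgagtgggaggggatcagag

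The CArG boxes were searched with at most 1 of the 6 central bases other than A or T, a pattern that reads alike on both strands, and their first bases lay 84 and 34 bases before that start. Of 32851 RefSeq promoters, 8.59% held at least 1 such box in the same window and 0.67% held 2 or more. The E-box CAGCTG, also the same on both strands and not overlapping the boxes, was found in Acta2 and Abcc9, against 13.0% of all promoters. GTGGGAA, the core bound by the Notch partner Rbpj, was searched on both strands and found in 0 of the 7, against 5.42% of all. Pdgfrb, Myh11 and Tagln had no promoter in the table. A match describes these letters and does not show that a factor binds.

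Acta2 itself measured 86.8, 88.1, 86.3 and 94.87 CPM in male C-del libraries, against 94.81, 124.3, 114.7 and 111.8 CPM in male mock libraries. The highest C-del library just topped the lowest mock library. Acta2 fell by 0.33 ± 0.070 on the log2 scale (SE; edgeR, adjusted p = 0.00826).

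Myh11, the smooth muscle myosin heavy chain (chromosome 16, 14194527 to 14292188, minus strand), was at 59.9, 66.67, 61.6 and 59.5 CPM in male C-del libraries, against 66.64, 83.5, 70.6 and 76.3 CPM in male mock libraries. Here too 1 C-del library reached just above the lowest mock library, and the log2 fold change was -0.27 ± 0.067 (SE; edgeR, adjusted p = 0.0206). Tagln, also called SM22, is an actin-binding protein (chromosome 9, 45929628 to 45936058, minus strand). It measured 25.37, 25.30, 25.38 and 26.39 CPM in male C-del libraries, against 26.47, 32.98, 33.15 and 30.97 CPM in male mock libraries, with no overlap and a log2 fold change of -0.27 ± 0.071 (SE; edgeR, adjusted p = 0.0234). Exons of the unrelated gene Gm48529 on the other strand cover 62.4% of the exonic bases of Tagln, and Gm48529 has no counts of its own here. Pcsk7, also on the other strand, shares 108 exonic bases (5.43%) with Tagln. It was at 42.8 to 46.1 CPM in male C-del libraries and 42.3 to 51.7 CPM in male mock libraries. Strand use in counting is not given, so the source of the Tagln reads is less sure.

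Mylk, the kinase that switches on smooth muscle myosin (chromosome 16, 34745199 to 35002436, plus strand), was at 29.8, 33.6, 29.0 and 32.5 CPM in male C-del libraries, against 34.4, 36.4, 40.9 and 42.0 CPM in male mock libraries. The groups did not overlap, and Mylk fell by 0.30 ± 0.074 on the log2 scale (SE; edgeR, adjusted p = 0.0172). Cnn1, calponin, which restrains actomyosin in smooth muscle (chromosome 9, 22099221 to 22109221, plus strand), was scarce, at 3.0, 3.21, 3.25 and 4.0 CPM in male C-del libraries, against 3.65, 5.84, 3.91 and 3.92 CPM in male mock libraries. The groups overlapped, and the log2 fold change of -0.36 ± 0.17 did not pass (SE; edgeR, adjusted p = 0.185).

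The male count depended on the fit. Kcnj8 passed in all 14 alternatives tried in males, Pdgfrb and Acta2 in 13, Abcc9 and Notch3 in 12, Myh11 and Mylk in 9 and Tagln in 8, with the fold change below 0 in every one. DESeq2, 1 of the 14, called 9 of the markers, Rgs5 among them, with 10.3% of all genes called. Taking the male contrast from a fit of all 15 libraries, which share 1 estimate of the spread, left 1 marker past the threshold, Kcnj8, with 377 of all genes passing. Without male C-del library 1, and without male mock library 4, 5 markers passed.

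**Figure D2:**
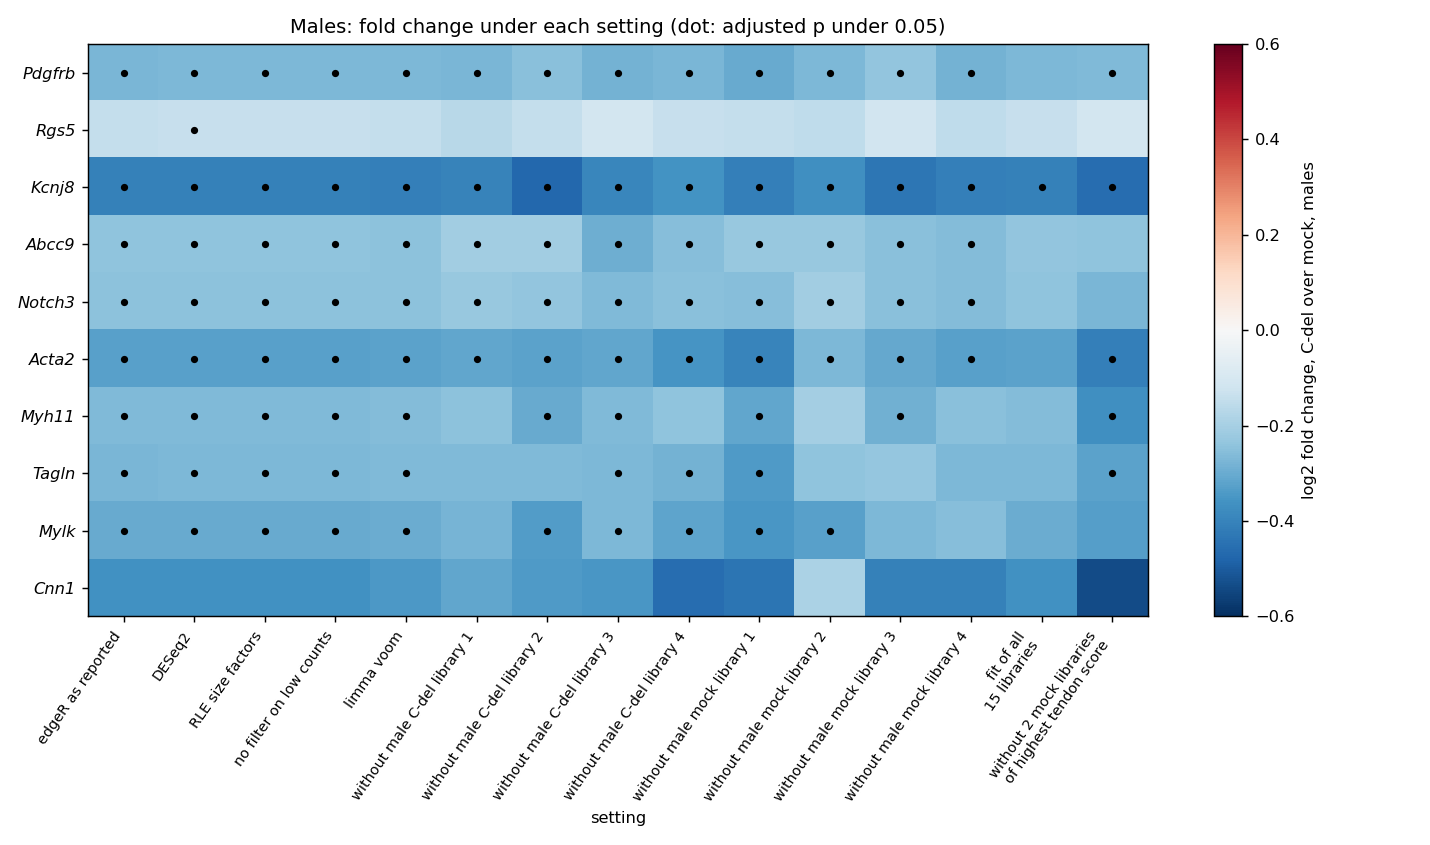
Log2 fold change of each marker in males, C-del over mock (colour), in the fit as reported (left column) and in the 14 alternatives, with a dot where the adjusted p was under 0.05. All cells are below 0. Kcnj8 carries a dot in every column and Cnn1 in none.

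Markers of other cell types were read beside these counts. The 9 tendon markers were all below 0 in males, with a median log2 fold change of -0.80, and 7 of 9 had an unadjusted p under 0.05. Over all 14548 genes tested in males, 3777 had an unadjusted p under 0.05 and 11.2% passed. Of the 9 tendon markers 1 passed, Tnmd, at -0.80 ± 0.22 (SE; edgeR, adjusted p = 0.0438), and it did so in 4 of 14 alternatives. The summed level of the tendon markers was 198 to 342 CPM in C-del males and 323 to 511 CPM in mock males, and none was at 0. Leaving out male mock libraries 1 and 3, where the tendon score was highest, 5 of the 10 mural markers passed, with 499 of all genes passing. The mock libraries that remained, 2 and 4, had tendon scores (mean log2(CPM + 1) of the markers) of 3.73 and 3.74, above the 2.77 to 3.56 of the C-del males. Fibroblast markers summed to 1254 to 1612 CPM in C-del males and 1293 to 3094 CPM in mock males, and macrophage markers to 67.3 to 227 CPM in C-del males and 82.3 to 98.7 CPM in mock males. In edgeR, 0 of 11 fibroblast and 0 of 10 macrophage markers passed, with 1 of each at an unadjusted p under 0.05. The part of tendon, fibroblast and macrophage RNA in the mural result was not tested.

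Endothelial cells, which share the vessel with mural cells, were read as well. Of 15 endothelial markers 1 fell in males and 0 rose, beside 5.39% of all genes that were lower. It was the tight junction gene Cldn5, at -0.81 ± 0.16 (SE; edgeR, adjusted p = 0.00468). The median log2 fold change of the 15 was 0.00088, with 8 above and 7 below 0. Their summed level was 878 to 924 CPM in C-del males and 865 to 904 CPM in mock males. The summed level of the 5 pericyte markers was 988 to 1017 CPM in C-del males and 1120 to 1169 CPM in mock males, and that of the 5 contractile markers 205 to 217 CPM in C-del males and 226 to 283 CPM in mock males. Neither of the mural sums overlapped between the groups. Most of the pericyte sum was Rgs5, which did not pass, and Abcc9, at means of 613 and 367 CPM in mock males.

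In females, 0 of the 10 markers passed (edgeR), beside 0.014% of all 14239 genes tested, which is 2 genes. DESeq2 and limma also called 0 of the markers, while DESeq2 called 2.63% of all genes. At an unadjusted p under 0.05 there were 4 markers, Rgs5, Notch3, Myh11 and Mylk, all higher with C-del, against 4.86% of all genes that were higher at that level. The log2 fold change was above 0 in 9 of the 10, against 47.5% of all genes, and the median was 0.25, against -0.015 over all genes. In 3 of the 10, Rgs5, Notch3 and Mylk, all C-del libraries exceeded all mock libraries, an arrangement found in 5.61% of all genes.

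Rgs5 was at 559, 546, 594 and 617 CPM in female C-del libraries, against 499, 435 and 519.9 CPM in female mock libraries, without overlap. Its log2 fold change of 0.26 ± 0.10 did not pass (SE; edgeR, adjusted p = 0.358). Notch3 measured 35.8, 33.4, 38.5 and 39.0 CPM in female C-del libraries, against 28.6, 32.5 and 21.1 CPM in female mock libraries. These groups were just apart, with a log2 fold change of 0.41 ± 0.15 (SE; edgeR, adjusted p = 0.319). Mylk measured 27.6, 28.8, 30.2 and 30.7 CPM in female C-del libraries, against 25.0, 23.9 and 21.7 CPM in female mock libraries, and its log2 fold change was 0.31 ± 0.10 (SE; edgeR, adjusted p = 0.261). Exact two-sided permutation gave p = 0.057 for each of these 3 genes, the smallest that 4 against 3 libraries allow.

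The other female values overlapped between the groups. Myh11 was at 37.6, 49.1, 46.6 and 54.0 CPM in female C-del libraries, against 41.6, 31.0 and 31.2 CPM in female mock libraries (log2 fold change 0.44 ± 0.15, SE; edgeR, adjusted p = 0.299). Pdgfrb was at 41.1, 38.3, 34.8 and 37.7 CPM in female C-del libraries, against 26.8, 39.5 and 29.1 CPM in female mock libraries. Kcnj8, the deepest fall in males, lay at 30.4, 27.2, 27.5 and 24.4 CPM in female C-del libraries, against 28.1, 27.0 and 29.0 CPM in female mock libraries, with a log2 fold change of -0.033 ± 0.11 (SE).

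A single female mock library stood apart in several markers. Female mock library 3 had 149 CPM of Abcc9, against 312 and 277 CPM in the other mock libraries and 273, 258, 282 and 285 CPM in the female C-del libraries. In the same library Notch3 was the lowest of the 7 female libraries, while Tagln was the highest, at 29.4 CPM, against 17.6 and 15.2 CPM in the other mock libraries and 15.5, 22.3, 20.8 and 24.6 CPM in female C-del. Acta2 was at 47.5, 60.1, 63.8 and 67.9 CPM in female C-del libraries, against 51.3, 45.3 and 67.9 CPM in female mock, the last of these in library 3 again. Cnn1 was at 2.19, 3.08, 2.52 and 2.59 CPM in female C-del and at 0.76, 1.54 and 2.31 CPM in female mock libraries. Without female mock library 3 the log2 fold change of Tagln was 0.34 and that of Abcc9 was -0.11, with neither passing.

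In females the vessel lining had the same sign. All 15 endothelial markers were above 0, with a median of 0.25 and 0 passing, and their summed level was 735 to 805 CPM in female C-del and 597 to 658 CPM in female mock libraries. The pericyte sum, again mostly Rgs5 and Abcc9, was 903 to 1003 CPM in female C-del and 748 to 895 CPM in female mock libraries, without overlap. The contractile sum overlapped, at 130 to 180 CPM in female C-del and 117 to 153 CPM in female mock libraries. Macrophage markers summed to 59.7 to 125 CPM in female C-del and 96.7 to 615 CPM in female mock libraries. The part of these cells in the female values was not tested.

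**Figure D3:**
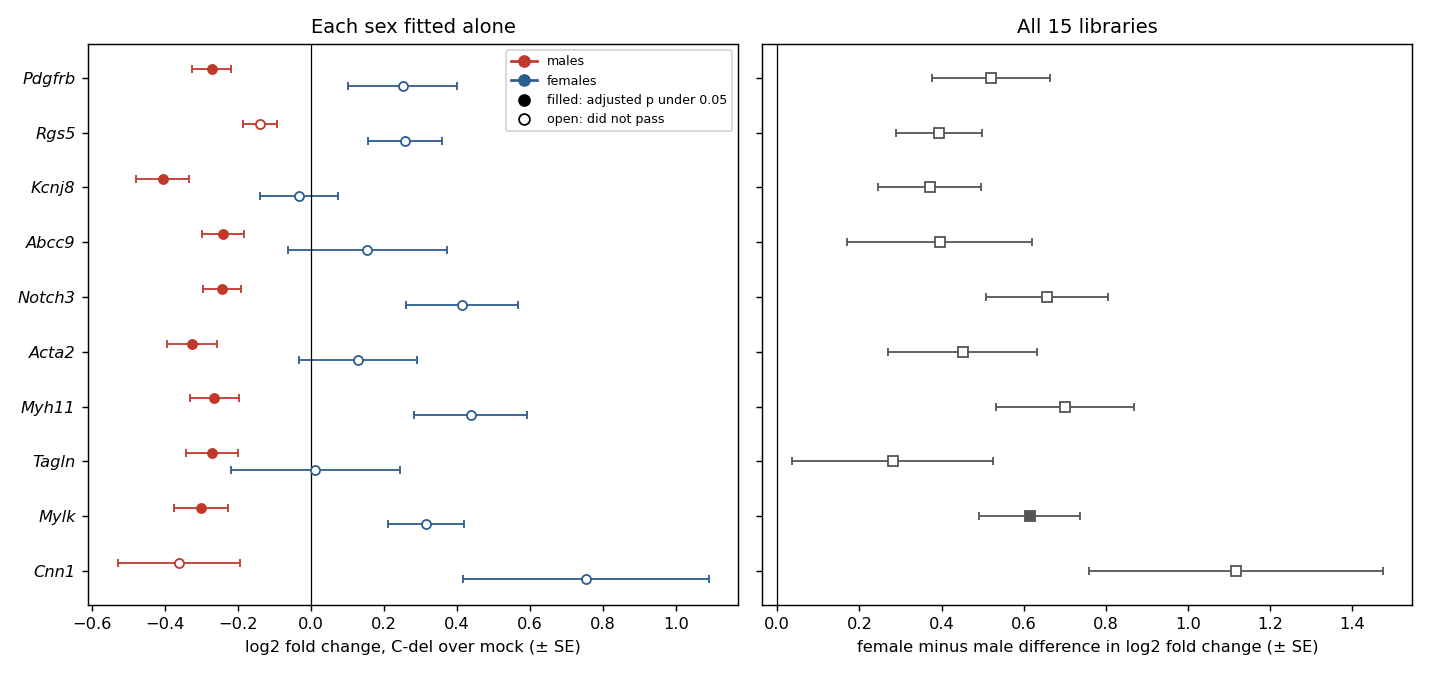
Left, log2 fold change of each marker, C-del over mock, with its SE, in males (red) and females (blue), each sex fitted alone. Right, the female minus male difference in log2 fold change with its SE, from all 15 libraries. Filled symbols passed at an adjusted p under 0.05: 8 in males, 0 in females and, for the difference, Mylk.

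The difference between the sexes was then tested itself, as the female minus male log2 fold change in a fit of all 15 libraries. All 10 markers had a difference above 0, against 48.3% of all genes, with a median of 0.49, against -0.015 over all genes. Mylk passed, at 0.61 ± 0.12 (SE; edgeR, adjusted p = 0.0465), so 1 of 10 markers passed beside 0.353% of all 15285 genes. At an unadjusted p under 0.05 there were 8, all positive, against 7.07% of all genes. DESeq2 called 5 of them, Pdgfrb, Rgs5, Notch3, Myh11 and Mylk, with 4.27% of all genes called. The Mylk call held in 6 of 19 alternatives, with adjusted p from 0.002 to 0.115, and leaving out any single male C-del library, or male mock library 2, 3 or 4, ended it. Leaving out female C-del library 2, 3 or 4, or female mock library 3, also ended it. By sign alone, 9 of the 10 were lower in males and higher in females, a pattern seen in 23.9% of 14035 genes.

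Averaged over the sexes, 0 of the 10 markers passed in edgeR, beside 4.46% of all genes, with 1 at an unadjusted p under 0.05, against 19.7% of all genes. That gene was Kcnj8, at -0.22 ± 0.062 (SE; edgeR, adjusted p = 0.0565), which DESeq2 called (adjusted p = 0.0292) along with 7.12% of all genes. The median over the markers was -0.00055.

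The signals that act on mural cells were read next, from lists of pathway genes. Of 13 Notch genes, 4 fell in males and 0 rose, at an adjusted p under 0.05 (edgeR), beside 5.39% of all genes that were lower. Jag1, the Notch3 ligand of endothelium and smooth muscle, measured 8.81, 8.43, 9.20 and 9.11 CPM in male C-del libraries, against 13.4, 15, 13.7 and 15.8 CPM in male mock libraries. The groups stood well apart, and the log2 fold change was -0.71 ± 0.085 (SE; edgeR, adjusted p = 0.000127). The ligand of endothelial tip cells, Dll4, fell by 0.54, the Notch target Heyl of mural cells by 0.44 and the DNA-binding partner Rbpj by 0.21. Rbpj passed in 6 of 14 alternatives, while Jag1 and Dll4 passed in all 14 and Heyl in 13. In females 0 of 12 tested Notch genes passed. The female minus male difference passed for Jag1, at 0.999 ± 0.15 (SE; edgeR, adjusted p = 0.0103), and held in all 19 alternatives.

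The PDGF genes split. Pdgfb, the endothelial ligand of Pdgfrb, rose in males to 35.1 ± 3.38 CPM in C-del libraries, against 25.9 ± 2.35 CPM in mock libraries (± SD, n = 4 each). Its log2 fold change was 0.43 ± 0.080 (SE; edgeR, adjusted p = 0.00308). C-del females had 29.9 ± 2.10 CPM (± SD, n = 4) and mock females 23.0 ± 2.98 CPM (± SD, n = 3), which did not pass. Averaged over the sexes, the Pdgfb effect passed. Pdgfa, a ligand of Pdgfra, fell by 0.25 in males and passed in 8 of 14 alternatives. Ligand and receptor transcripts of the PDGF-BB pair, Pdgfb and Pdgfrb, had opposite signs in males.

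The regulators of contractile genes also split in males. Of 9 tested SRF genes 3 rose, with Klf4, a factor known to repress smooth muscle genes in culture, at 36.3 ± 2.77 CPM in C-del males and 14.8 ± 0.28 CPM in mock males (± SD, n = 4 each). The log2 fold change of Klf4 in males was 1.30 ± 0.067 (SE; edgeR, adjusted p = 8.15e-08). Klf4 was also higher in female C-del libraries, at 19.1 to 24.1 CPM, against 11.5 to 14.01 CPM in female mock libraries. These groups did not overlap, but the female log2 fold change of 0.71 did not pass (edgeR). Averaged over the sexes, the Klf4 effect passed, and did so in all 19 alternatives. In males the SRF cofactor Mrtfa rose by 0.54 and Srf by 0.17, with Srf passing in 7 of 14 alternatives. The sister cofactor Mrtfb fell by 0.46, and was the 1 gene of the list that fell. Over all genes tested in males, 5.39% were lower and 11.2% passed in either direction. For Mrtfb the female minus male difference passed, at 0.96 ± 0.19 (SE; edgeR, adjusted p = 0.046), and did so in 7 of 19 alternatives. Myocd, myocardin itself, was scarce and did not pass in either sex. It averaged 1.15 ± 0.31 CPM in C-del females (± SD, n = 4) and 0.41 ± 0.21 CPM in mock females (± SD, n = 3), at a log2 fold change of 1.49 ± 0.42 (SE; edgeR, adjusted p = 0.199).

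**Figure D4:**
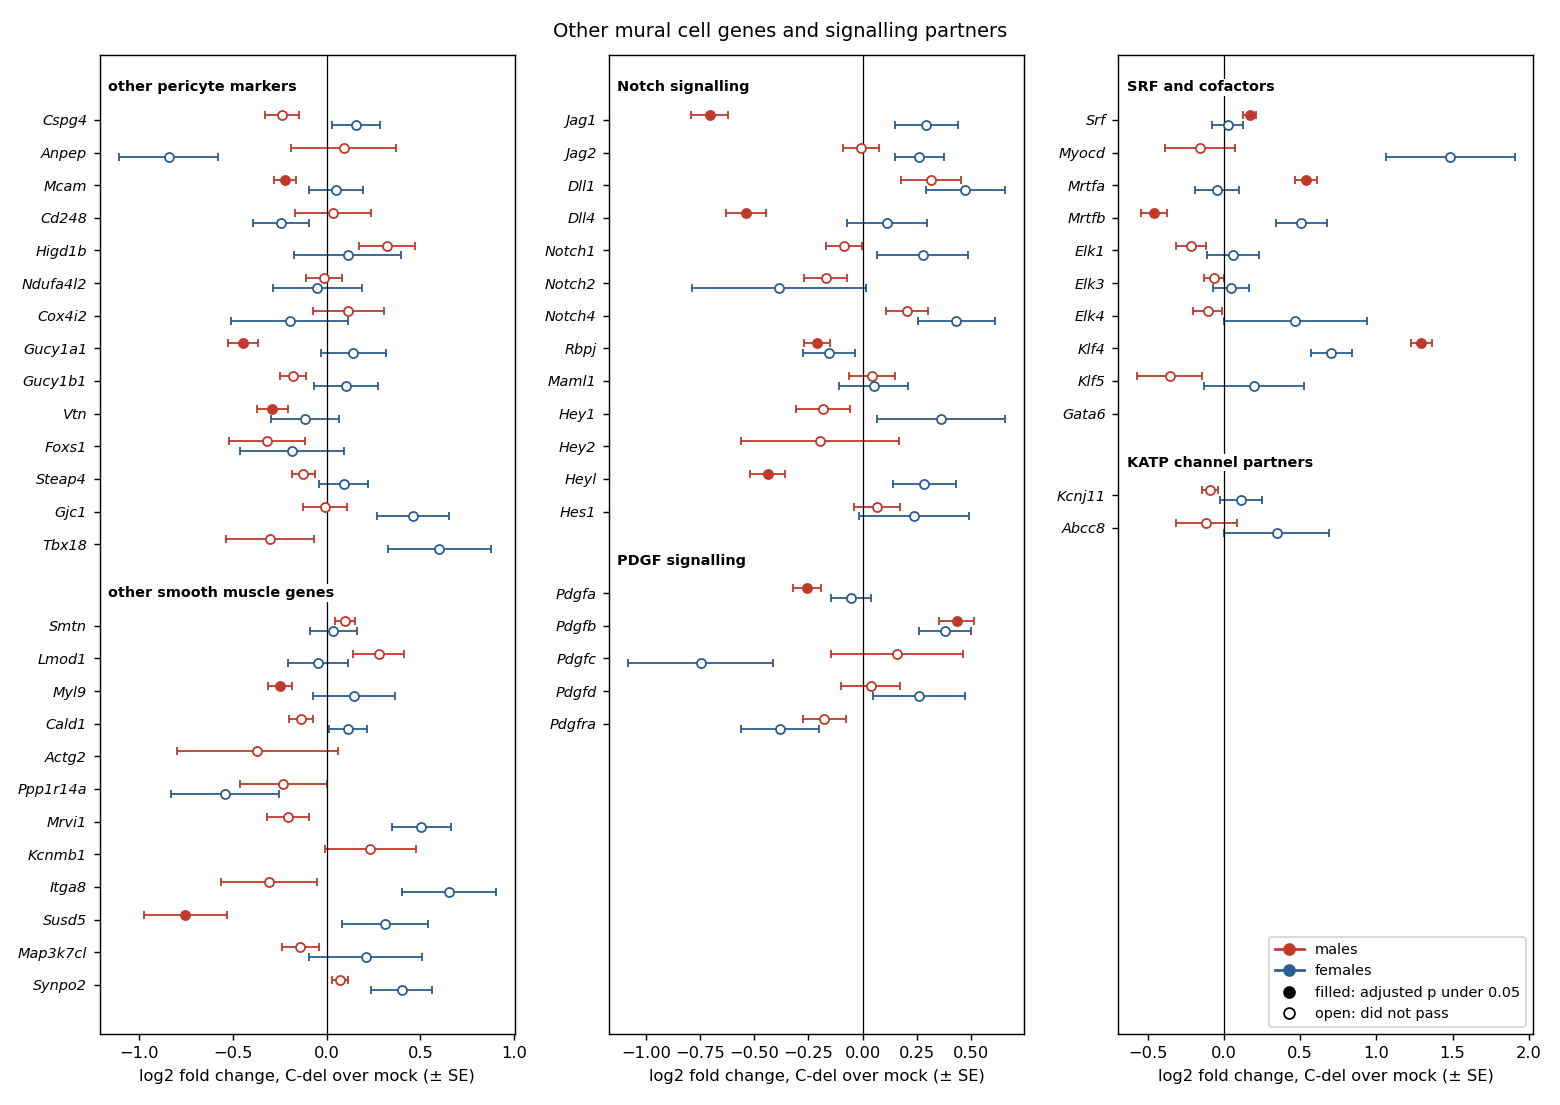
Log2 fold change, C-del over mock, with its SE for other pericyte and smooth muscle genes and for Notch, PDGF, SRF and KATP channel genes, in males (red) and females (blue). Filled points passed at an adjusted p under 0.05, and a missing point was too low to test. Jag1, Dll4 and Heyl lie below 0 in males, and Klf4, Mrtfa and Pdgfb above 0.

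Mural genes outside the 10 were counted in males too. Of 14 further pericyte markers 3 fell and 0 rose, beside 5.39% of all genes that were lower. Gucy1a1, a subunit of the nitric oxide receptor, fell by 0.45, Vtn by 0.29 and the adhesion protein Mcam by 0.22. The median of the 14 was -0.15. Gucy1a1 passed in 13 of 14 alternatives, Mcam in 6 and Vtn in 5. The classic pericyte proteoglycan Cspg4 was at 13.8 ± 1.07 CPM in C-del males and 16.3 ± 1.61 CPM in mock males and did not pass (± SD, n = 4 each; edgeR, adjusted p = 0.103).

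Of 12 further smooth muscle genes 2 fell, the myosin light chain Myl9 by 0.25 and Susd5 by 0.75, and 0 rose, with a median of -0.17, beside 5.39% of all genes that were lower. Myl9 passed in 9 of 14 alternatives and Susd5 in 6. Smtn, smoothelin, was at 69.6 ± 1.56 CPM in C-del males and 64.9 ± 3.95 CPM in mock males and did not pass (± SD, n = 4 each). Of 11 genes that control contraction 1 rose, Ppp1r12b, a myosin phosphatase subunit also made by striated muscle, by 0.15, passing in 6 of 14 alternatives. That share is below the 11.2% of all genes that passed in males. In females 0 of the 14 pericyte, 0 of the 10 tested smooth muscle and 0 of the 11 contraction control genes passed (edgeR). At an unadjusted p under 0.05 there were 2, 3 and 1, beside 1706 of all 14239 genes tested in females.

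Relatives of the markers were compared as well. Among 14 of them, Rgs3 and Rgs4, regulators of G protein signalling like Rgs5, fell in males by 0.64 and 0.48. Acta1, the skeletal counterpart of Acta2, rose by 0.20. Over all genes tested in males, 5.39% were lower and 11.2% passed in either direction. Rgs3 passed in 14, Rgs4 in 13 and Acta1 in 10 of 14 alternatives.

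The 10 markers did not vary together as a block between libraries of the same group. Over the 45 pairs of markers, the correlation of deviations from the group mean, on the log2(CPM + 1) scale over all 15 libraries, whose points for each pair of genes come from the same libraries, had a median Pearson r of -0.042, with 21 pairs above 0. Acta2 and Tagln went together (r = 0.95, Spearman rho = 0.93), and so did Abcc9 and Notch3 (r = 0.86, rho = 0.84). Abcc9 and Tagln ran opposite by Pearson (r = -0.69, rho = -0.26), and female mock library 3 held the lowest Abcc9 and the highest Tagln of the female libraries. The genes most like the mean deviation of the 10 markers by Pearson r were Rnf40, Tesk1, Slc27a4, Bop1 and Safb2, among 10181 genes compared. Their r ran from 0.80 to 0.87 and their rho from 0.63 to 0.86, with rho lowest for Rnf40, where r was highest. These are descriptions and carry no test.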

How the data were processed

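RNA-seq of tibialis anterior was analysed from the deposited expected counts for each gene, without normalization. They are estimates, and 14.6% to 17.3% of the values in a library were not whole (tolerance 0.001). Per the submitters' processing notes, featureCounts 2.0.0 and GRCm38.p6 were used. Aligner, counting options and strand use: not given in the sources used here. Reads of overlapping genes may therefore be mixed. The planned test assumed whole counts, so values were rounded first. Female columns carry title numbers, whereas a male column can be tied to its group but not to a title, so a male library number only names a column. Chi-square per gene between libraries of a group was 2.48 to 40.1, so none was taken as a copy. The male C-del libraries lay in pairs, at 4.52 for libraries 1 and 2 and 4.25 for libraries 3 and 4. Between those pairs it was 11.2 to 13.6. Macrophage sums there were 205 and 227 CPM in libraries 1 and 2, and 67.3 and 86.7 CPM in libraries 3 and 4. What lies behind this pairing was not tested.

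Counts were tested with edgeR 4.0.16 under R 4.3.3 (robust quasi-likelihood, TMM, filterByExpr with a minimum count of 10), with Benjamini-Hochberg adjustment over all genes tested and a threshold of 0.05. Each sex was fitted alone, and the average and the female minus male difference came from a fit of all 15 libraries. The SE is the log2 fold change over the root of F. CPM uses TMM-scaled sizes over all 15 libraries. Permutation tests used log2(CPM + 1), a pseudocount of 1, in scipy 1.17.1. Alternatives were DESeq2 1.42.0, limma 3.58.1 (voom), RLE size factors, no filter, each library left out, a replicate block in females, and fits without libraries that stood apart. The edgeR script was tested on simulated data. Exon overlaps and lengths came from GENCODE on GRCm38, positions and promoters from RefSeq.

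The 10 markers and 21 further lists were chosen with earlier results of these data known. By the rule for named genes, the text takes the 10 markers, up to 4 tested genes of each list by smallest p with passing ones first, relatives of markers, tissue checks and the 5 genes most like the markers' mean deviation with a mean of at least 5 CPM. Cspg4, Smtn, Myocd, Pcsk7 and 5330439B14Rik were named after their values were seen. Some genes of the further lists are not reported here.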

Additional observations from a re-analysis of the deposited data

Results flagged for a closer look

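Each of the 10 markers was read in the male C-del, male mock and female C-del groups, which have 4 libraries each. Among all these groups of 4, 4 values lay far from the other 3 by Dixon's criterion, which chance meets in about 1 in 20 groups. Pdgfrb was lowest in male C-del library 2, at 55.9 CPM. Rgs5 was highest in male mock library 3, at 641.3 CPM. Tagln was highest in male C-del library 4, at 26.4 CPM, where the other 3 lay within 0.1 CPM of one another. Cnn1 was highest in male mock library 2, at 5.84 CPM. The female mock group has 3 libraries and was not read this way.

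The effect of C-del on Mylk passed as different between the sexes, with a female minus male log2 difference of 0.61 (edgeR, adjusted p = 0.0465 over all genes). That call held in 6 of 19 alternatives. All male C-del libraries lay below all male mock libraries, and all female C-del libraries lay above all female mock libraries. Sex and table cannot be told apart in that difference.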

How the results depend on the processing

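In males, 1 marker and 377 genes passed with the contrast from all 15 libraries, 5 markers and 499 genes without the mock libraries of the 2 highest tendon scores, and 5 to 8 markers (1100 to 1531 genes) with a library left out. All 10 markers kept a negative fold change in all 14 male alternatives. Rgs5 passed in DESeq2 alone (adjusted p = 0.0446). In females, genes called were 375 in DESeq2, 15 without a filter, 777 with the contrast from all 15 libraries, where 1 marker passed (Notch3, adjusted p = 0.0413), 30 when that 15-library fit left out mock libraries 2 and 3, and 1 to 1052 with a library left out (1052 without mock library 1, and at most 3 without any other). For the average, DESeq2 called 1089 genes and 1 marker, and leaving out a library gave 371 to 2094 genes and 0 to 1 markers. For the difference, DESeq2 called 652 genes and 5 markers, no filter 0 markers, voom 18 genes and 0 markers, and leaving out a library gave 11 to 1815 genes and 0 to 4 markers. The cause of these shifts was not tested.

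Signs near 0 reversed in females, with a library left out, for Abcc9 (-0.11 to 0.36), Kcnj8 (-0.091 to 0.014) and Tagln (-0.17 to 0.34), and for Abcc9 at -0.19 in the 15-library fit without female mock libraries 2 and 3. That fit holds 1 female mock library, assumed to vary like the other groups, which supply the spread. For the average they reversed for Abcc9 (-0.17 to 0.067), Mylk (-0.018 to 0.034), Pdgfrb (-0.059 to 0.089) and Tagln (-0.22 to 0.038).

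The replicate numbers of the female titles did not pair the libraries: deviations of the 3 same-numbered pairs correlated at -0.14 to -0.0091, and in 0 of 3 was the own number the best match. With the replicate block in females, 2 genes and 0 markers passed, Kcnj8 was at 0.016 and Tagln at -0.045. Male columns carry no title numbers, so no block was fitted there.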

Other observations

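Single genes of vessel tone are given here, with no count over their list. Ednrb, the endothelin B receptor, rose to 27.9 ± 2.01 CPM in male C-del libraries, against 13.3 ± 0.33 CPM in mock males (± SD, n = 4 each). The log2 fold change was 1.06 ± 0.069 (SE; edgeR, adjusted p = 4.61e-07). C-del females had 18.6 ± 0.99 CPM (± SD, n = 4) and mock females 8.99 ± 2.05 CPM (± SD, n = 3), at a log2 fold change of 1.04 that did not pass within females (edgeR, adjusted p = 0.0976) and passed in the average over the sexes. Nos3, the endothelial nitric oxide synthase, fell by 0.38 in males and Ptgir, the prostacyclin receptor, by 0.60 (edgeR, both at an adjusted p under 0.05).

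The transcript 5330439B14Rik shares 158 exonic bases with Abcc9 on the other strand. It was at 4.65, 4.35, 5.37 and 5.38 CPM in female C-del libraries, against 5.22, 4.36 and 0.66 CPM in female mock libraries, low in the same mock library 3 as Abcc9. In that library Mrtfb was at 23.3 CPM, against 35.3 and 38.7 CPM in the other female mock libraries. What these low values share was not tested.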
